A study of Mus musculus with 4 samples.

Results

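The genes described here encode the neuropeptides and calcium-binding proteins by which forebrain interneurons are usually classified. They are the neuropeptide precursor genes Sst, Npy, Vip, Cck, Tac1, Penk and Pdyn and the calcium-binding protein genes Pvalb, Calb1 and Calb2. They were found by name in the array annotation and make up 10 of the 24172 genes and 15 of the 44170 targets (sets of probes for 1 transcript) on the array. The study measured gene expression on 4 single-colour arrays of total RNA labelled as Neuro2a (N2a), a mouse neuroblastoma cell line kept in serum-containing medium. By the labels, the control group had received scramble siRNA (2 arrays) and the knockdown group Men1 siRNA (2 arrays), so that both had been transfected. Neither the dose nor the time after transfection is given in the labels. Menin, the product of Men1, belongs to a complex that methylates histones at active genes, and the comparison asks which transcripts differ when it is knocked down. The labels do not say that replicates came from separate cultures, and the spread behind each p-value may therefore be technical.

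Neuropeptides are made as longer precursors, cut by convertases inside dense-core granules, released when calcium rises, and sensed by G protein-coupled receptors. Parvalbumin, calbindin and calretinin are EF-hand proteins that bind calcium in the cytosol and shape its rise and decay. In cortex and hippocampus, somatostatin, parvalbumin and VIP mark largely separate classes of GABAergic interneurons, whereas enkephalin, dynorphin and substance P are best known from projection neurons of the striatum. Several of these precursor genes are classical targets of the cAMP-responsive factor CREB.

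Values are RMA intensities on a linear scale, with array medians from 145.9 to 151.2 and random control probes between 42.8 and 52.3. An intensity of 100 was taken as well above background: the authors' own value table is limited to targets of at least 100 on every array, 20620 in number. The targeted gene Men1 read 6985 and 6222 on the scramble siRNA arrays, against 2764 and 4109 on the Men1 siRNA arrays, which is −0.97 ± 0.35 in log2 terms (limma adjusted p = 0.314). Of 11 measured markers of sympathoadrenal neuroblasts, a cell type that the labels do not name, 5 reached 100 on both scramble siRNA arrays and 2 on all arrays. Among them the transcription factor gene Gata2 read 6002 and 3452 against 83.9 and 83.5, and the tyrosine hydroxylase gene Th 95.01 to 141.6 over the arrays. Of 9 cortical projection neuron markers 7 reached 100 on all arrays, with the vesicular glutamate transporter gene Slc17a7 between 2072 and 5589. Below, the arrays are called by their siRNA labels. In such bulk RNA, fewer cells of a type and less RNA per cell cannot be told apart.

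Of the 10 genes, 7 reached 100 on all 4 arrays: Sst, Npy, Cck, Penk, Calb1, Calb2 and, at 1 of its 3 targets, Pvalb. Over all genes 52.3% did so. Vip, Tac1 and Pdyn lay at or near the random probes on most arrays. Each target has its own probes, so levels were compared between arrays and not between genes.

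**Figure D1:**
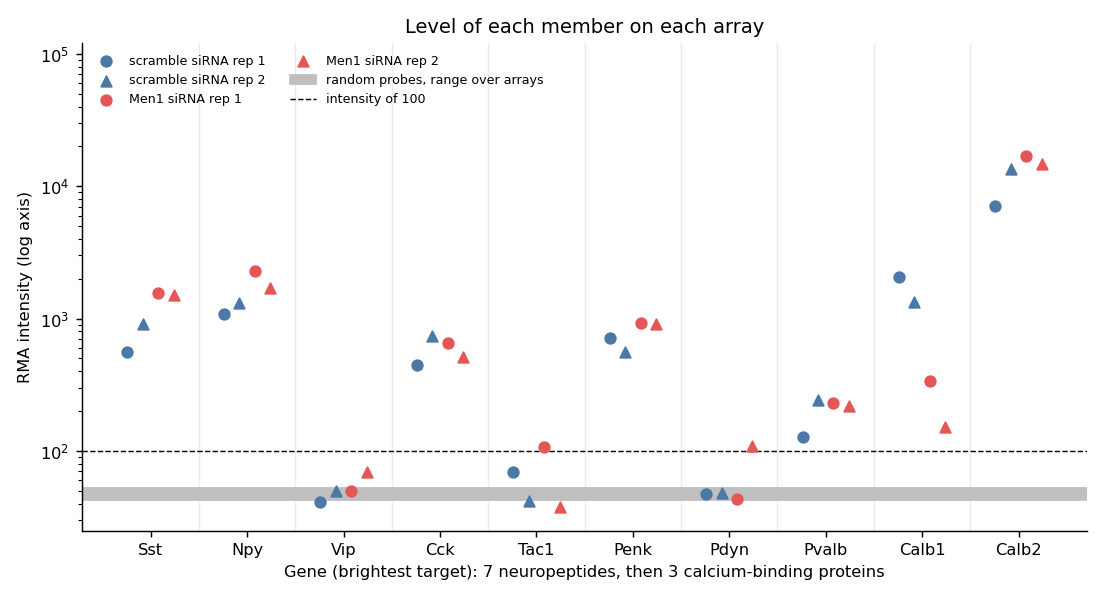
Intensity (log axis) of the brightest target of each gene on each of the 4 arrays; circles and triangles are replicates 1 and 2, the grey band is the range of the random probes (42.8 to 52.3) and the dashed line marks 100. Vip, Tac1 and Pdyn sit near the band, and Calb1 is the gene whose Men1 siRNA arrays (337.3 and 151.8) lie far below its scramble siRNA arrays (2060 and 1331).

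With Men1 siRNA, Calb1 was lower on both arrays, at 0.137 times its scramble level, and Sst was higher on both, at 2.16 times. Neither passed the test, and 0 of the 10 genes were called in limma (adjusted p under 0.05 over all genes), against 0.389% of all genes (0.0372% higher and 0.352% lower). At an unadjusted p under 0.05 there were 2, Sst and Calb1, against 14.2% of all genes. The arrays of the groups did not overlap for 4 genes that were higher with Men1 siRNA (Sst, Npy, Penk and Calb2) and 1 that was lower (Calb1). Over all genes 25.8% were higher and 21.7% lower without overlap. In 9 of 10 genes the log2 change was positive, as it was in 54.5% of all genes, and the median was 0.45 against 0.06 over all genes. Both figures include Vip, Tac1 and Pdyn, which are too dim for their sign to be read. With 2 arrays per group the smallest two-sided p of an exact permutation test is 0.33, so only the fit across all genes was used. Below, a positive log2 change means a higher level with Men1 siRNA, and each change carries the SE of limma (n = 2 arrays per group).

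**Figure D2:**
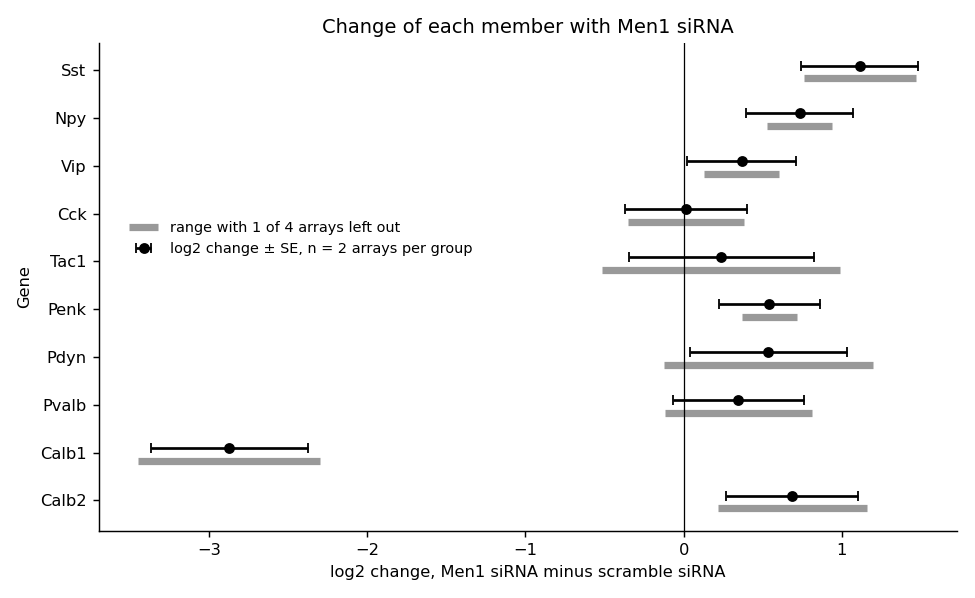
Log2 change of each gene, Men1 siRNA minus scramble siRNA, with its SE from limma (black, n = 2 arrays per group) and the range over the 4 fits that leave out 1 array (grey). Calb1 stays between −3.45 and −2.30 and Sst between 0.76 and 1.47, whereas the ranges of Cck, Tac1, Pdyn and Pvalb cross 0.

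Sst encodes somatostatin, which restrains hormone release and, in cortex, is made by interneurons that contact dendrites. Its target (gene ID 20604, chromosome 16, 23889664 to 23890920 on MM9) read 555.2 and 908.8 on the scramble siRNA arrays, against 1561 and 1515 on the Men1 siRNA arrays. The group means were 732 ± 250 and 1538 ± 32.4 (SD, n = 2). The Men1 siRNA arrays lay close together and above both scramble siRNA arrays, which differed more between themselves. The log2 change was 1.11 ± 0.37 (95% interval 0.19 to 2.03; limma adjusted p = 0.288). It was 0.76 without scramble siRNA replicate 1, the array where Sst was dimmest, and 1.47 without scramble siRNA replicate 2. Replicate numbers are those of the per-array data; the value table holds the scramble siRNA columns the other way round, so which of them is replicate 1 is not settled.

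Of the somatostatin receptor genes, Sstr1, Sstr2 and Sstr5 reached 100 on all arrays. Sstr2 read 124.4 and 171.9 against 236.8 and 620.4, a log2 change of 1.39 ± 0.53 that was 0.70 without Men1 siRNA replicate 2 and 2.08 without Men1 siRNA replicate 1. Sstr1 read 205.7 and 181.0 against 273.2 and 342.2 (0.66 ± 0.32), and Sstr5 147.0 and 175.1 against 223.5 and 236.6 (0.52 ± 0.31). Sstr3, with scramble siRNA replicate 1 under 100, read 71.4 and 102.6 against 157.6 and 253.4. All 4 were higher on both Men1 siRNA arrays without overlap, as 25.8% of all genes were. None of the 4 passed in limma (adjusted p = 0.334 for Sstr2, 0.422 for Sstr1, 0.506 for Sstr5 and 0.280 for Sstr3).

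The Sst promoter is shown because it holds the cAMP response element, the site at which CREB binding was worked out, and those of Npy and Vip because Npy was the other peptide gene with a change above 0.7 and Vip lay near the random probes. RefSeq promoters on GRCm38.p6 were given for 7 of the 10 genes, namely Sst, Npy, Vip, Cck, Tac1, Pdyn and Pvalb. Each line gives the 250 bases before the transcription start, 5′ to 3′ on the strand of the gene, at chr16:23890845-23891094 (minus strand), chr6:49822460-49822709 (plus strand) and chr10:5638968-5639217 (plus strand). Capitals mark the element TGACGTCA, its half-site TGACG and the TATA box TATAAA, searched on both strands; the full element contains the half-site on each strand.
Sst: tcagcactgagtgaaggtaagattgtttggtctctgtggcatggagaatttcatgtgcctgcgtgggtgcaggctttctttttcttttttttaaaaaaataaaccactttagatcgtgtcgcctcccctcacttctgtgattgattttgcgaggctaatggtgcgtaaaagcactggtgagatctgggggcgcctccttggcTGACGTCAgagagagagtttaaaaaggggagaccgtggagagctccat
Npy: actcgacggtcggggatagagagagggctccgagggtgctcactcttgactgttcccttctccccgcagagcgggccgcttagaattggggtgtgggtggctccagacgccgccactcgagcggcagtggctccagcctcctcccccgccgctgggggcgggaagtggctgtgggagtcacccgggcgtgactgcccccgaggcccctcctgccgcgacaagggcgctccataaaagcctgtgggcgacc
Vip: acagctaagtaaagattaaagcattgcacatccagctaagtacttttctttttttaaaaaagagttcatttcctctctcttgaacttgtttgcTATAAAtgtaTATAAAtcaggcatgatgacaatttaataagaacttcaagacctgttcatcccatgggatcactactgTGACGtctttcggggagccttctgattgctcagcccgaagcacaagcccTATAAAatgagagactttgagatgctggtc
The full element was found in Sst alone among the 9 promoters of these genes, from 48 to 41 bases before the start, and in 1.55% of 32851 promoters of the same length. The half-site was found in the promoters of Sst, Vip, Cck and Tac1, and in 17.8% of all promoters. The TATA box was found in Vip alone, and in 12.4% of all promoters. Among the genes that hold the half-site, Sst had a log2 change of 1.11 and Cck of 0.01, while Vip and Tac1 were too dim to have one that could be read. Such matches describe the letters of these windows only.

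Npy encodes neuropeptide Y, which is made by many cortical interneurons and by sympathetic neurons and acts on feeding and vascular tone. Its target (gene ID 109648, chromosome 6, 49772727 to 49779504 on MM9) read 1074 and 1312 on the scramble siRNA arrays, against 2277 and 1711 on the Men1 siRNA arrays. Both Men1 siRNA arrays lay above both scramble siRNA arrays. The log2 change was 0.73 ± 0.34 (95% interval −0.11 to 1.57; limma adjusted p = 0.402), and with 1 array left out it ranged from 0.53 to 0.94. The measured Npy receptor genes Npy2r, Npy4r and Npy5r reached 100 on at most 1 array each.

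Penk encodes proenkephalin, the precursor of the enkephalins, which act on opioid receptors. Its target (gene ID 18619, chromosome 4, 4060682 to 4065962 on MM9) read 709.2 and 559.1 on the scramble siRNA arrays, against 930.5 and 902.8 on the Men1 siRNA arrays. The groups did not overlap. The log2 change was 0.54 ± 0.32 (95% interval −0.25 to 1.34; limma adjusted p = 0.497). Pdyn, which encodes the precursor of the dynorphins, read 47.2 and 48.0 against 43.7 and 108.9. Only Men1 siRNA replicate 2 reached 100, and without it the log2 change was −0.13 in place of 0.53. The opioid receptor genes Oprm1 and Oprk1 read 83.6 to 128.6 and 56.8 to 82.7 over the 4 arrays.

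Cck encodes cholecystokinin, made by a class of basket cells and by many pyramidal neurons, and known in the gut as a satiety hormone. Its target (gene ID 12424, chromosome 9, 121398941 to 121404757 on MM9) read 444.6 and 738.4 on the scramble siRNA arrays, against 648.9 and 514.9 on the Men1 siRNA arrays. Both Men1 siRNA values lay between the scramble siRNA values. The log2 change was 0.01 ± 0.39 (limma adjusted p = 0.992), with a 95% interval from −0.95 to 0.97 that leaves room for a change in either direction. Its receptor gene Cckar read 140.6 and 130.7 against 118.3 and 274.9, and Cckbr stayed between 35.5 and 46.1.

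Vip, which encodes vasoactive intestinal peptide, the marker of interneurons that inhibit other interneurons, read 41.2 and 49.95 on the scramble siRNA arrays, against 49.7 and 69.0 on the Men1 siRNA arrays. All 4 values were under 100, so no fold is given. Of its receptor genes, Vipr1 read 81.3 and 125.8 against 58.2 and 50.7, and with both Men1 siRNA arrays under 100 it was at least 1.01-fold lower (limma adjusted p = 0.352). The related receptor gene Adcyap1r1, which prefers the peptide PACAP, read 477.6 and 749.3 against 1058 and 1038, a log2 change of 0.81 ± 0.36 (limma adjusted p = 0.389).

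Tac1 encodes the precursor of substance P and neurokinin A. Its brightest target read 69.8 and 42.2 against 107.8 and 37.98, and another read 55.2 and 48.0 against 111.0 and 40.7. Men1 siRNA replicate 1 alone reached 100, at both of these targets. The remaining target, which lies at the 3′ side of the gene on MM9, read 34.7 and 72.1 against 31.96 and 31.5 and had a log2 change of the opposite sign, −0.66 against 0.24 at the brightest. Tac1 was thus not well above background on 3 of the 4 arrays, and its direction is not settled.

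Calb1 encodes calbindin, a calcium buffer of Purkinje cells and of some interneurons and projection neurons, which also carries calcium through cells of the distal kidney tubule and other epithelia. Its only target (gene ID 12307, chromosome 4, 15808487 to 15832711 on MM9) read 2060 and 1331 on the scramble siRNA arrays, against 337.3 and 151.8 on the Men1 siRNA arrays. All values were above 100, and the lower scramble siRNA value was well above the higher Men1 siRNA value. The group means were 1695 ± 515 and 244.5 ± 131 (SD, n = 2). On the log scale Calb1 was 7.32-fold lower, a log2 change of −2.87 ± 0.50 (95% interval −4.10 to −1.64). In limma it did not pass (adjusted p = 0.104). It passed with a prior variance that follows intensity (limma adjusted p = 0.00597) and among the 12702 genes of the authors' value table (limma adjusted p = 0.0185), and over all alternatives the limma adjusted p ranged from 0.00597 to 0.465.

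Calb2 encodes calretinin, the calcium-binding protein of many VIP interneurons and of Cajal-Retzius cells. Its brighter target (gene ID 12308, chromosome 8, 112666437 to 112692106 on MM9) read 7068 and 13584 on the scramble siRNA arrays, against 16925 and 14684 on the Men1 siRNA arrays. The groups did not overlap, but scramble siRNA replicate 2 lay closer to the Men1 siRNA arrays than to replicate 1 of its own group. The log2 change was 0.69 ± 0.42 (95% interval −0.35 to 1.73; limma adjusted p = 0.511), and it was 0.21 without scramble siRNA replicate 1. The other target, whose span starts 5034 bases farther out, read 120.8 and 163.1 against 233.5 and 108.5. Its groups overlapped (0.18 ± 0.47).

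Pvalb encodes parvalbumin, the fast calcium buffer of basket and chandelier interneurons. Its brightest target (gene ID 19293, chromosome 15, 78021547 to 78036830 on MM9) read 127.2 and 242.1 on the scramble siRNA arrays, against 229.4 and 217.2 on the Men1 siRNA arrays. The groups overlapped, and the log2 change was 0.35 ± 0.41 (limma adjusted p = 0.735). Its other targets read 88.6 and 110.6 against 244.1 and 104.0, and 94.4 and 85.9 against 143.1 and 63.9. At both of these Men1 siRNA replicate 1 was the brightest array, and the other arrays lay between 63.9 and 110.6.

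**Figure D3:**
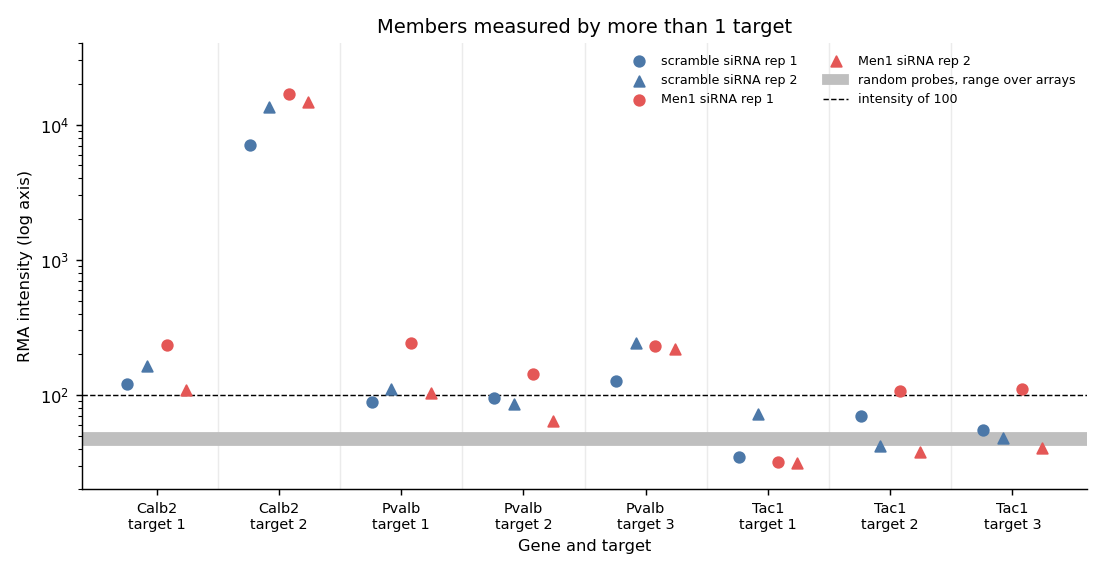
Intensity (log axis) on each array at every target of Calb2, Pvalb and Tac1, the genes with more than 1 target; symbols, band and dashed line are as in the plot of levels by gene, and target numbers run in the order of the annotation's transcript names. The bright Calb2 target lies between 7068 and 16925, while the other Calb2 target and those of Pvalb and Tac1 lie at 244.1 or below.

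Over all 15 targets, 0 passed in limma fitted on all targets, against 0.34% of the 44170, and 2 had an unadjusted p under 0.05, against 13.6%. The gene whose pattern over the 4 arrays was nearest to that of Calb1, by the Euclidean distance of log2 values centred on their mean, was Pth1r, the receptor gene for parathyroid hormone. It read 2882 and 1931 against 469.2 and 209.6, at a distance of 0.06. Next came Adcy4, an adenylyl cyclase gene (0.22), and Mamdc2 (0.35). These had log2 changes of −2.91, −2.75 and −2.86 beside −2.87 for Calb1. On Men1 siRNA replicate 2, Adcy4 read 46.7 and Mamdc2 56.5, near the random probes, so their changes and distances rest in part on a value near background. The distance was taken to 24171 other genes over 4 arrays.

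Markers of other cell types moved with the groups, so their values stand beside those of the members. The level of 10 epithelial markers, summed, was 30158 and 19919 on the scramble siRNA arrays, against 1305 and 2273 on the Men1 siRNA arrays, a ratio of 0.0703. That of 10 fibroblast markers was 60693 and 56047 against 8626 and 8322, a ratio of 0.145, beside 0.137 for Calb1. Thy1, at 5287 and 4838, was the largest part of the fibroblast sums on the Men1 siRNA arrays. Its log2 change was −0.20, against a median of −3.15 for the fibroblast list, so the ratio of the sums depends much on this gene. In limma 5 epithelial and 4 fibroblast genes were called lower (adjusted p under 0.05), as 0.352% of all genes were. The ratio was 0.325 for the sum of 10 endothelial and immune markers. It was 0.369 for the 11 sympathoadrenal markers, whose sums were 8891 and 6473 against 3077 and 2541. Gata2 was the largest part of the scramble siRNA sums. The list as a whole did not fall: 6 of the 11 had a positive log2 change and 5 a negative one, with a median of 0.10. The part of these cell types in the lower Calb1 level was not tested.

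Sums of forebrain neuron markers were higher with Men1 siRNA, as Sst, Npy, Penk and Calb2 were. The sympathoadrenal sum, with Gata2 as its largest part on the scramble siRNA arrays, was lower. Summed levels were 1.33 times the scramble level for 23 interneuron and GABAergic markers, 1.46 times for 9 cortical projection neuron markers, 1.32 times for 9 striatal markers and 1.25 times for 12 glial markers, with red blood cell markers at 1.98 times. The interneuron markers summed to 18700 and 24950 with scramble siRNA and to 31165 and 26587 with Men1 siRNA. The glial sums, 13615 and 18618 against 22405 and 17615, overlapped between groups. The red blood cell sums were 25663 and 13287 against 33414 and 39895, with the globin gene Hbb-b1 at 7273 or more on every array. Where such transcripts came from in RNA labelled N2a was not tested. Of the forebrain neuron and glial lists 0 genes passed in the fit used here, against 0.389% of all genes. Sst, at 2.16 times, was above each of these sums, but a sum follows its brightest genes. Single interneuron markers lay on both sides of Sst. Npas1, Gad2 and Prox1 were at 2.64, 2.34 and 2.18 times, and the other markers of that list were lower, down to 0.303 times for Dlx5. Npy and Calb2, at 1.66 and 1.61 times, were above the forebrain neuron and glial sums (1.25 to 1.46) and below the red blood cell sum (1.98). Penk, at 1.46 times, lay within the range of the forebrain neuron and glial sums. The part of these cell types in the levels of the 4 genes was not tested.

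**Figure D4:**
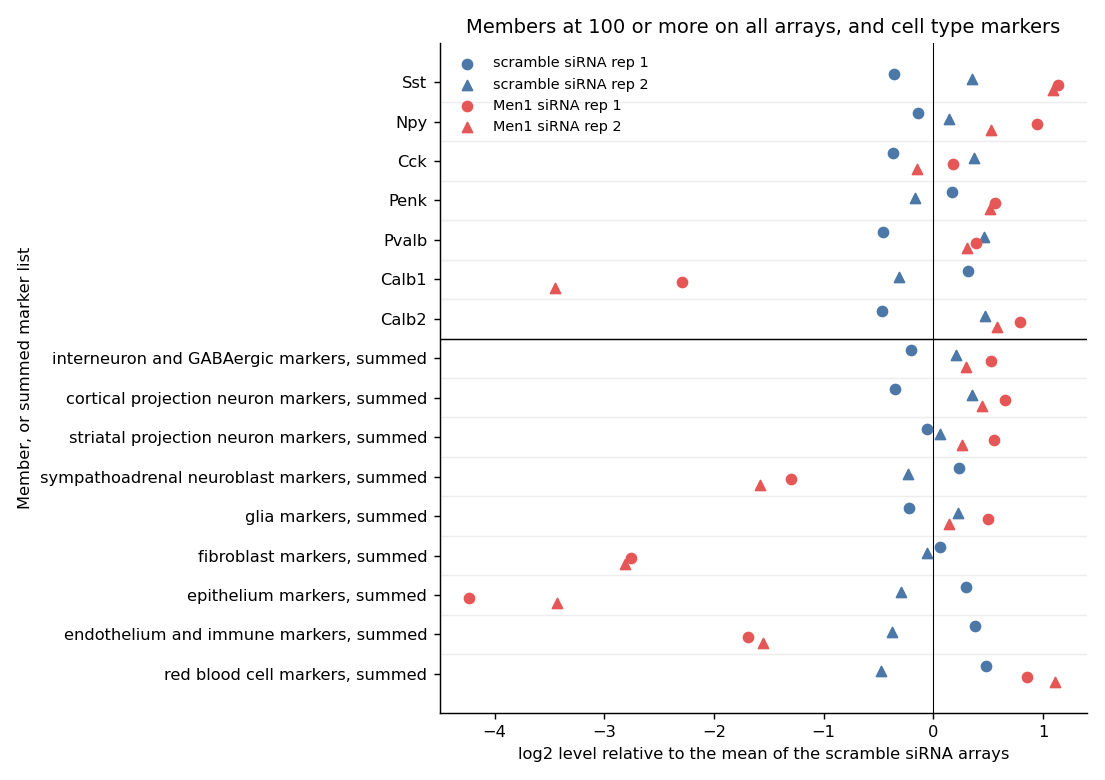
Log2 level on each array relative to the mean of the scramble siRNA arrays, for the 7 genes at 100 or more on all arrays (above the line) and for the summed intensity of each marker list (below the line). Calb1 lies to the left with the fibroblast, epithelial, endothelial and sympathoadrenal sums. Gata2 makes the largest part of the sympathoadrenal sum on the scramble siRNA arrays, and Thy1 that of the fibroblast sum on the Men1 siRNA arrays. Sst, Npy, Penk and Calb2 lie to the right with the sums of forebrain neuron markers.

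Among the 23 markers of interneurons, 18 reached 100 on all arrays. The GABA synthesis gene Gad2 read 360.3 and 642.1 against 1082 and 1169, a log2 change of 1.23 ± 0.39, and Npas1, a transcription factor gene of interneurons, had 1.40 ± 0.37 with scramble siRNA replicate 1 under 100. Against this direction, Nr2f2, a nuclear receptor gene of caudally born interneurons that is also found in vessels and mesenchyme, had −1.49 ± 0.31, and the homeobox gene Dlx5 had −1.72 ± 0.38. Limma's adjusted p was 0.276 for Gad2, 0.217 for Npas1, 0.153 for Nr2f2 and 0.164 for Dlx5. With the prior that follows intensity it was 0.0266 for Nr2f2 and 0.0123 for Dlx5, and among the genes of the value table it was 0.0329 and 0.0400, all past the threshold. At an unadjusted p under 0.05 there were 6 higher and 2 lower, where 6.47% and 7.74% of all genes were, and the median log2 change was 0.59.

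The machinery that makes and packs peptides was measured by 17 genes, of which 16 reached 100 on all arrays. None passed in limma. At an unadjusted p under 0.05, 6 were higher and 0 lower, where 6.47% and 7.74% of all genes were. In 15 the log2 change was positive, with a median of 0.61, against 54.5% and 0.06 over all genes. Vgf, which encodes a granule protein induced by neurotrophins, read 439.2 and 503.9 against 863.9 and 1245 (1.14 ± 0.35). Pcsk1n, which encodes the inhibitor of the convertase PC1, read 7599 and 9198 against 15149 and 17584 (0.97 ± 0.32). Cadps, a priming factor of granules, had 1.48 ± 0.48, and Ptprn2, a granule membrane protein gene, 1.04 ± 0.35 at its brightest target but 0.15 as the mean of its targets. These 4, named for the smallest p of the list, were higher on both Men1 siRNA arrays (limma adjusted p = 0.258, 0.287, 0.284 and 0.291). Over all genes 25.8% were higher without overlap. Pcsk1, the convertase gene, read 123.4, 38.05, 33.1 and 35.1 over the arrays, above 100 on scramble siRNA replicate 1 alone.

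The peptide receptors, 17 measured, had a median log2 change of 0.38, with 0 called, 2 higher and 0 lower at an unadjusted p under 0.05, and 5 at 100 or more on all arrays. Other neuropeptide precursors were mostly dim: 11 of 25 had both groups under 100, and 5 reached 100 on all arrays. Their median was 0.19, with 0 called and 3 higher and 0 lower at an unadjusted p under 0.05. Beside both lists, 6.47% of all genes were higher and 7.74% lower at that p, with a median of 0.06. Oxt, the oxytocin gene, read 71.1 and 118.2 against 285.7 and 297.8, a log2 change of 1.67 ± 0.37 (limma adjusted p = 0.165). Grp, the gastrin-releasing peptide gene, read 116.1 and 177.0 against 343.6 and 208.6 (0.90 ± 0.41; limma adjusted p = 0.401). Hcrt, the orexin gene, reached 100 on Men1 siRNA replicate 2 alone, at 123.9, and Cartpt on no array.

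Other EF-hand calcium-binding proteins, the wider family of Pvalb, Calb1 and Calb2, went in both directions. Of 27 measured, 0 were called, 2 were higher and 2 lower at an unadjusted p under 0.05, and the median log2 change was 0.28. Over all genes 6.47% were higher and 7.74% lower at that p, with a median of 0.06. S100a1 read 244.1 and 268.3 against 107.9 and 81.8 (−1.45 ± 0.33; limma adjusted p = 0.169). Rcn1, which encodes a calcium-binding protein of the endoplasmic reticulum, read 8108 and 6684 against 3660 and 3931 (−0.96 ± 0.31; limma adjusted p = 0.285). S100a6, expressed in fibroblasts and epithelia as well as in neurons, read 3914 and 1386 against 5503 and 8491 (1.55 ± 0.57; limma adjusted p = 0.320), and its log2 change was 2.30 without scramble siRNA replicate 1 and 0.80 without scramble siRNA replicate 2. Rcvrn, the recoverin gene, was at least 1.03-fold higher, with both scramble siRNA arrays under 100 (limma adjusted p = 0.351). No gene of this family was as low with Men1 siRNA, relative to scramble siRNA, as Calb1.

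**Figure D5:**
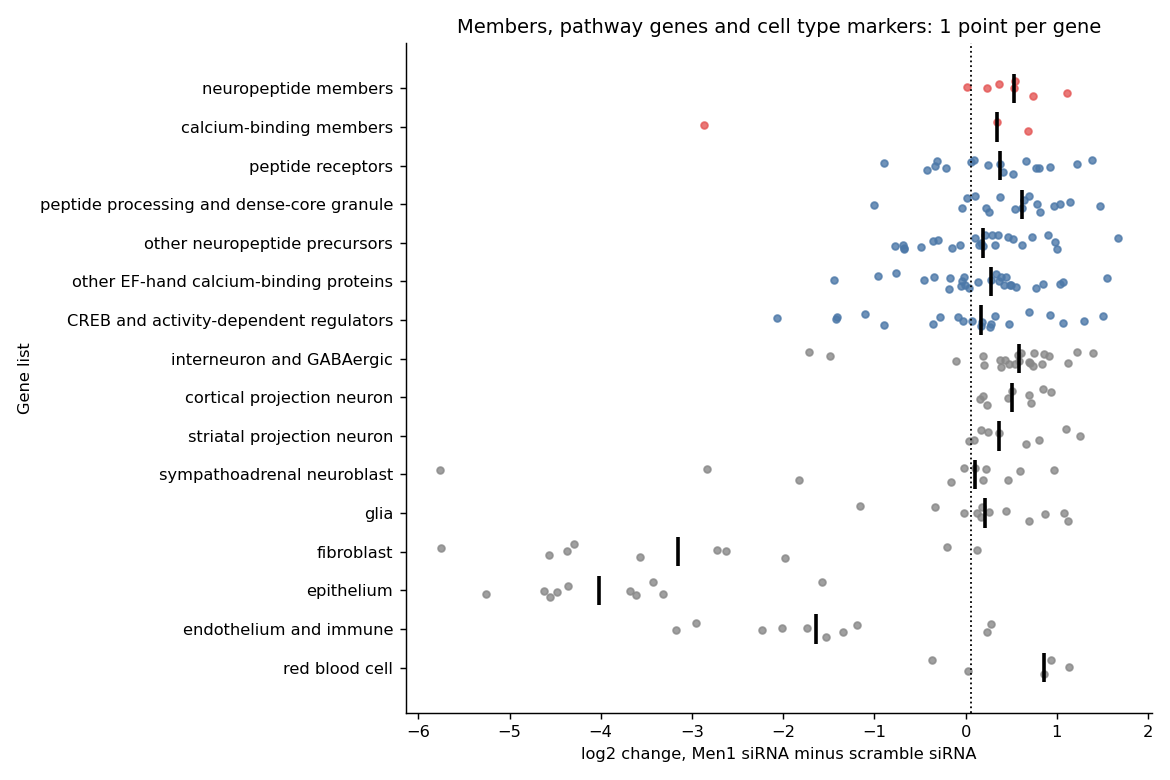
Log2 change, Men1 siRNA minus scramble siRNA, for each measured gene of the lists (1 point per gene; red for the 10 genes described, blue for pathway lists, grey for cell type markers), with the median of each list as a black bar and that of all genes, 0.06, as a dotted line. The median of the granule list is 0.61, those of the fibroblast and epithelial markers −3.15 and −4.02, and Calb1 stands apart from Pvalb and Calb2.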

How the data were processed

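RNA labelling followed a NimbleGen protocol per the labels' protocols, although the series text names an Agilent array. Per the file headers, the authors deposited linear RMA intensities, 1 per target, with targets placed on MM9; how background was corrected is not stated there. The 5000 random probes stayed out of the tests. Symbols were updated by gene ID (21583 of 24204 found in RefSeq, GRCm38.p6). Intensities were log2 transformed without a pseudocount or renormalization, the target of highest mean log2 value standing for its gene. Groups were compared in limma 3.58.1 (lmFit, eBayes; R 4.3.3) with no covariate. P-values were two-sided and Benjamini-Hochberg adjusted over all 24172 genes or 44170 targets (threshold 0.05). Where both arrays of 1 group lay under 100, a fold is "at least": the brighter group against 100 or the dimmer value, the higher of them on each array. The number of arrays limits the precision. The fit was tested on simulated data with 250 changed genes of each size, pooled over several runs. It called 0.4% of those with a log2 change of 1, 1.2% at 2, 78% at 4 and 92% at 6. In each run most genes were left unchanged, and spreads were drawn from the fitted prior rather than from each gene. These shares may therefore differ in the data, where the share of changed genes is not known.

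Members, lists and tests were chosen with earlier results of these data known. Named are all members, Men1, up to 4 genes of smallest p per pathway list and per interneuron, striatal and sympathoadrenal list, any of these past the threshold, receptors at 100 or more on all arrays, and the 3 genes nearest to Calb1. The remaining receptors and markers, Pcsk1 and Slc17a7 among them, were named after their values were seen, and 1 gene within the rule is not reported here. Alternatives were the replicate block, each array left out, 3 normalizations, the authors' value table, a filter on dim genes, other target rules and priors, a pseudocount of 32 and a threshold of 0.01; crossed numbers and a floor at 100 were added after the data were seen. Plots were drawn with matplotlib 3.10.9 in Python 3.11.15.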

Additional observations from a re-analysis of the deposited data

How the results depend on the processing

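With any 1 array left out, 0 genes passed in limma (2105 to 3357 at an unadjusted p under 0.05), where 94 passed with all 4. The count was 711 with a prior that follows intensity, 422 in the authors' value table, which holds fewer genes, 289 with dim genes filtered, 252 with a pseudocount of 32, 8 with a floor at 100, and 0 at an adjusted p under 0.01. Of the members 1, Calb1, passed in the value table and 1, again Calb1, with the prior that follows intensity; 0 passed under the others, each target alone included. Of the other genes named as not passing, Nr2f2, Dlx5 and Pth1r also passed in both of these; Bdnf passed in the value table; Crtc2, Pcsk1n, Rcn1, Slc6a2, Adcy4 and Mamdc2 passed with the prior that follows intensity, and Mamdc2 also with dim genes filtered and with a pseudocount of 32.

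Sst, Npy, Penk, Calb2 and Calb1 kept their sign under every alternative run, and so did Vip, which is too dim for its sign to be read. The groups of Sst, Npy, Penk, Calb2 and Calb1 did not overlap, so leaving out 1 array could not reverse their sign. The replicate block and the other priors leave the log2 change itself as it is. A kept sign is therefore no separate evidence of a change. With 1 array left out, Cck ranged from −0.35 to 0.38, Tac1 from −0.51 to 0.99, Pdyn from −0.13 to 1.19, Pvalb from −0.12 to 0.81 and the receptor gene Cckar from −0.20 to 1.02. Cck was −0.029 under cyclic loess, and Tac1 was −0.012 as the mean of its targets and −0.66 at its 3′ target. The cause was not tested. Median log2 changes of all genes lay between 0.01 and 0.08 under the normalizations tried.

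Same-numbered arrays deviated from their group means with a correlation of −0.18 across genes, so equal numbers were not treated as pairs. The scramble siRNA numbers are themselves not settled, since the authors' value table exchanges them for 20617 of its 20620 targets, and with them exchanged that correlation has the opposite sign. Crossed numbers were run because the correlation was negative. With the replicate block 69 genes passed, Calb1 had an adjusted p of 0.0811 in limma and no member passed; with crossed numbers 0 genes passed (3980 at an unadjusted p under 0.05). The sympathoadrenal gene Gata2, at least 45.5-fold lower (limma adjusted p = 0.0281), had an adjusted p of 0.0767 to 0.256 with 1 array left out.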

Other observations

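Genes that act upstream of neuropeptide transcription, the CREB factors, their coactivators and kinases, activity-dependent factors and the repressor REST, were measured for 21 members. Of these 0 were called in limma, with 4 higher and 4 lower at an unadjusted p under 0.05 and a median log2 change of 0.17. Over all genes 6.47% were higher and 7.74% lower at that p, with a median of 0.06. Bdnf, the neurotrophin gene and itself regulated by CREB, read 243.2 and 207.9 on the scramble siRNA arrays, against 582.6 and 695.4 on the Men1 siRNA arrays, 2.83 times as high (limma adjusted p = 0.154). Averaged over its targets, the log2 change was 0.54. Camk4, a kinase gene of the CREB pathway, read 309.3 and 454.7 against 803.4 and 1051 (1.29 ± 0.36; limma adjusted p = 0.236). The CREB coactivator gene Crtc2 read 3579 and 2940 against 1028 and 1444 (−1.41 ± 0.35; limma adjusted p = 0.191), and the CREB family gene Atf1 410.4 and 526.9 against 224.7 and 207.3 (−1.11 ± 0.32; limma adjusted p = 0.246). Groups did not overlap for these 4, which were named for the smallest p of the list, nor for 47.5% of all genes.

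Among striatal projection neuron markers, whose cells are known for Penk, Pdyn and Tac1, 9 of 9 had a positive log2 change, with a median of 0.36 and 0 called. Positive changes were found for 9 of 9 cortical projection neuron markers too (median 0.50) and for 54.5% of all genes (median 0.06). The orphan receptor gene Gpr6 read 292.4 and 313.3 against 730.0 and 581.0 (1.11 ± 0.32; limma adjusted p = 0.243), and the dopamine receptor gene Drd2 293.1 and 234.1 against 870.9 and 449.3 (1.26 ± 0.43; limma adjusted p = 0.294). Ppp1r1b, a phosphatase regulator gene of striatal projection neurons, had 0.67 ± 0.34 (limma adjusted p = 0.439). Among sympathoadrenal markers, Slc6a2, the noradrenaline transporter gene, was at least 5.85-fold lower (limma adjusted p = 0.182), and at least 2.94-fold without scramble siRNA replicate 1 and 11.6-fold without scramble siRNA replicate 2. Gata3, with Men1 siRNA replicate 1 under 100, had −1.83 ± 0.40 at its brightest target (limma adjusted p = 0.162) and −0.83 as the mean of its targets. Ddc was at least 1.13-fold higher (limma adjusted p = 0.441).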
